A study of Homo sapiens with 9 samples.

Results

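The genes of the proteasome were followed in MDA-MB-231 cells, an established human breast adenocarcinoma line, after treatment with a mixed herbal injection or with either of its single-herb injections. The list held 41 genes by symbol: 14 genes of the 20S core, 20 of the 19S regulator including its base chaperones, and 7 others, namely the activators PSME1, PSME2, PSME3 and PSME4, the inhibitor PSMF1, the assembly factor POMP and the transcription factor NFE2L1. Of these, 40 were found among the 24344 genes of the table and all 40 passed the filter on low counts, as did 14195 genes in total. The level of PSMB3 was not analysed here.

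Unstranded paired-end RNA-seq was made from total RNA of cells grown for 48 h with Compound Kushen Injection (CKI, at 2.0 mg/mL), with Kushen injection or with Baituling injection, both single injections being given in the proportion they have in CKI. Each treatment had 3 libraries, 9 in all, and the design text of the series calls them biological replicates. The comparison asks how far each herb alone gives the state seen with the mixture. Untreated libraries were not analysed here, so every difference below is between treatments.

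The proteasome degrades proteins that carry chains of ubiquitin. Its 20S core is a barrel of alpha and beta rings, in which only PSMB5, PSMB6 and PSMB7 of the beta ring cut peptide bonds, and the 19S regulator caps the barrel, where its ring of ATPases unfolds substrates and its other subunits bind and remove ubiquitin. Cells that lack proteasome activity make more of nearly all subunits through NFE2L1, which binds antioxidant response elements in their promoters, and interferon exchanges the catalytic subunits for PSMB8, PSMB9 and PSMB10 to give the immunoproteasome.

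Total counts were 20144628 to 23782071 per library, and the 40 genes took 0.735% to 0.869% of them. Levels are given as CPM, each gene's count put on 1 common library size by TMM (trimmed mean of M values), as mean ± SD with n = 3 where a mean is shown. Markers of MDA-MB-231 cells were present, since VIM, CD44, EGFR, CAV1, MSN and PLAUR lay between 93.9 and 2116 CPM in every library, while of 6 genes taken as low in this line ESR1 and PGR did not exceed 0.177 CPM and CDH1 did not exceed 2.82 CPM. The others of those 6 held more, with EPCAM at 6.93 to 13.8 CPM, GATA3 at 7.69 to 24.8 and ERBB2 at 55.6 to 105 CPM. Baituling replicates 2 and 3 stood apart in a list of 6 keratinocyte markers, with SFN as the exception. They held counts for 6 of 6, with 93 and 124 counts of KRT5, 52 and 64 of KRT6A and 7 and 11 of DSG3, whereas these 3 genes were at 0 in the other 7 libraries. The summed level of the list without SFN was 12.7 and 14.9 CPM in those 2 libraries and 0.363 to 0.732 CPM elsewhere. SFN was left out because it is far more abundant and high in every Baituling library. It was at 398, 348 and 359 CPM in Baituling replicates 1, 2 and 3, so it was highest in replicate 1. Its group means were 115 CPM in CKI and 108 CPM in Kushen. For the 40 genes together, counts of calls and medians that use Baituling are also given without replicates 2 and 3. So is the difference of core and regulator. For single genes this is given only for PSMC2, PSMC4, PSMD4 and PSMD13. The share of counts taken by 34 histone genes differed too: CKI libraries held 0.0655% to 0.0667%, Kushen libraries 0.0265% to 0.0275%, Baituling libraries 0.00845% to 0.0093%. The part of either in the results below was not tested. Counts of 16 of the 40 genes can be shared with an annotated pseudogene, and those of 15 with exons of a gene on the opposite strand, which unstranded libraries do not separate.

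Promoters are shown first because NFE2L1 is known to act through a short sequence, TGACNNNGC, the core of the antioxidant response element. Windows from 250 bases before to 50 bases after the start of the gene, from RefSeq on build GRCh38.p14, were matched to 36 of the 41 genes, and the motif was searched on both strands, including overlaps. It was present for 12 of 36 genes (33.3%), against 4384 of 27305 genes in the whole table (16.1%), and a gene with several windows has more chance of a match. Core genes held it in 2 of 10 cases and regulator genes in 7 of 19. The core genes with a match were PSMA4 and PSMB3, and the level of PSMB3 was not analysed. Stretches of 59 bases, read 5′ to 3′ on the gene's own strand, are printed for 5 members described below whose match lies wholly before the start, with the match in capitals.
PSMD3, chr17:39980745-39980803, plus strand: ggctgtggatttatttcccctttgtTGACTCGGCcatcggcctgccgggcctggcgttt
PSMA4, chr15:78540635-78540693, plus strand: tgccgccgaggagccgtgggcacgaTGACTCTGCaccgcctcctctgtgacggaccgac
PSME1, chr14:24136083-24136141, plus strand: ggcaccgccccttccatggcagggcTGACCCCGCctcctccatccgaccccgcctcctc
PSME2, chr14:24146752-24146810, minus strand: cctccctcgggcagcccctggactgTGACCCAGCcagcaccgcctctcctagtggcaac
PSME4, chr2:53970994-53971052, minus strand: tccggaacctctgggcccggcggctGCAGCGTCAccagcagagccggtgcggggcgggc
In PSME4 the match lay on the opposite strand. These genes did not move alike: PSMD3 and PSME4 were higher in CKI than in Baituling, PSME1 and PSME2 were lower, and PSMA4 did not pass the test in that contrast.

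The 40 genes differed between treatments by small amounts and in both directions, and none passed a log2 fold change of 1 in any contrast, though PSME4 and PSMA6 reached 1.10 and 1.01 in CKI against Baituling with library totals. Over all genes tested, 1.9% were past that fold with an adjusted p under 0.05 when CKI was set against Kushen, 19.1% when it was set against Baituling and 15.2% for Kushen against Baituling. CKI against Kushen gave the fewest calls, with 11 genes higher in CKI, 3 lower and 26 that did not pass (edgeR quasi-likelihood test, Benjamini-Hochberg adjusted p under 0.05), while the test called 39.8% of all genes, 19.6% in the higher and 20.2% in the lower direction. For CKI against Baituling, 8 were higher, 22 were lower and 10 did not pass, where the test called 76.1% of all genes (39.1% higher, 37% lower). For Kushen against Baituling, 3 were higher, 21 were lower and 16 did not pass, where it called 71.6% of all genes (35.6% higher, 36.1% lower). Libraries of the treatments compared did not overlap for 20, 36 and 26 of the 40 genes in these contrasts, against 49.5%, 78.3% and 73.1% of all genes. The contrasts share libraries and are not independent of each other. In bulk RNA, fewer cells with a transcript and less of it per cell cannot be told apart.

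These splits depended on the scaling. TMM raised the Baituling levels relative to library totals, and with totals alone the splits of higher and lower became 26 and 0, 25 and 5, and 19 and 12 in the same order, as the share of higher genes among all called went from 49.2% to 69.7%, from 51.4% to 71.6% and from 49.6% to 67.3%. A scaling shifts all genes of a contrast alike, so the medians are given beside those of all genes. Their median log2 fold change was 0.07, -0.12 and -0.11 with TMM, beside 0.01, 0.03 and 0.02 over all genes, and 0.15, 0.17 and 0.10 with totals, beside 0.08, 0.32 and 0.23. The difference of the medians was 0.07, -0.15 and -0.13 with TMM. In CKI against Baituling it was -0.25 with no filter on low counts and -0.10 with at least 10 counts in every library. Without Baituling replicates 2 and 3, the counts of higher and lower were 5 and 24 against CKI and 3 and 21 against Kushen, with a median of -0.19 in both. That fit has 1 Baituling library, assumed to vary like the libraries of the other groups, which alone give the spread, and it called 64.5% and 59.5% of 14795 genes. Levels below are on the TMM scale. A direction that library totals reverse is named below for the genes recomputed one by one. It is not named for every other gene, and other genes with small differences can turn as well.

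**Figure D1:**
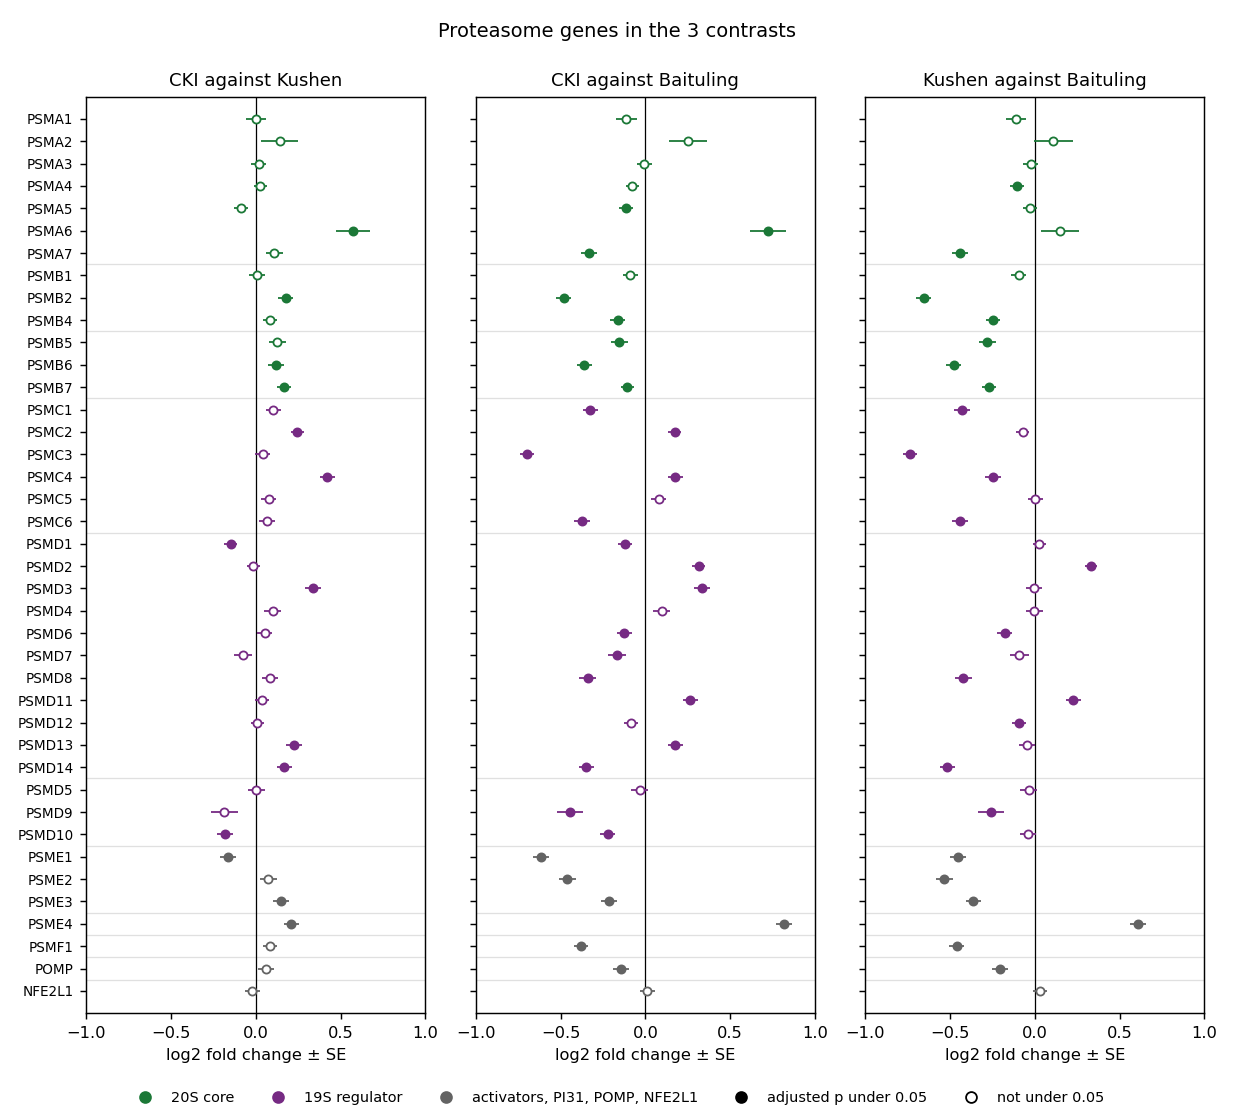
Log2 fold change (x axis) with its SE for each of the 40 genes (y axis) in the 3 contrasts, on the TMM scale, coloured by particle, with filled points for an adjusted p under 0.05. Points lie within 0.82 of 0 on both sides; among filled points of the middle panel, PSME4 is the highest and PSMC3 the lowest, and library totals would move that panel to the right, with 25 genes higher and 5 lower.

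In the 20S core, 13 genes were tested. Against Kushen, CKI had 4 higher and 0 lower, against Baituling 1 higher and 7 lower, and Kushen against Baituling gave 0 higher and 7 lower. The shares of all genes called higher and lower were 19.6% and 20.2%, 39.1% and 37%, and 35.6% and 36.1% in these contrasts. The beta ring carried most of the core calls, with 5 of 6 genes lower in either treatment than in Baituling, beside 2 of 7 alpha ring genes. These are few genes, and the difference between the rings was not tested. With library totals PSMB4, PSMB5 and PSMB7 turned to higher in CKI. The alpha ring genes called lower in CKI than in Baituling were PSMA5 and PSMA7. PSMA5, at -0.11 with TMM, was not among the genes recomputed one by one. Library totals moved the median of all genes in that contrast from 0.03 to 0.32.

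The catalytic genes were lowest in Kushen and highest in Baituling, except that library totals put PSMB5 and PSMB7 above Baituling in CKI. PSMB5, which encodes the chymotrypsin-like subunit, was at 147, 160.3 and 162 CPM in the CKI libraries, 149, 144 and 136 in Kushen and 184, 169 and 168 in Baituling. Baituling did not overlap the others, while CKI and Kushen did overlap. The log2 fold change was -0.15 ± 0.05 (SE) for CKI against Baituling (edgeR adjusted p = 0.00968) and -0.28 ± 0.05 for Kushen against Baituling (edgeR adjusted p = 5.74e-05), and CKI against Kushen missed the threshold at 0.13 ± 0.05 (edgeR adjusted p = 0.0509). With library totals the first was 0.13 and the second did not pass (-0.067, edgeR adjusted p = 0.208). The first also lost its call without CKI replicate 1 or Baituling replicate 1 (edgeR adjusted p = 0.0738 and 0.0643), while the last passed without CKI replicate 1 or Kushen replicate 1 (edgeR adjusted p = 0.0221 and 0.0195).

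PSMB6, the caspase-like subunit gene, had 186, 179.5 and 180.3 CPM in CKI, 165, 165 and 172 in Kushen and 249.5, 223 and 227 in Baituling, so the 3 treatments were fully separated. It was lower by a log2 fold change of -0.36 ± 0.05 in CKI and -0.48 ± 0.05 in Kushen relative to Baituling (edgeR adjusted p = 6.42e-07 and 1.43e-08), of which the first was -0.072 with library totals and did not pass (edgeR adjusted p = 0.126). The difference of 0.12 between CKI and Kushen (edgeR adjusted p = 0.0425) lost its call in 11 of the alternatives, including the removal of any single library of the pair (edgeR adjusted p = 0.0533 to 0.147). PSMB7, the trypsin-like subunit gene, had 288, 288 and 294 CPM in CKI, 262, 259 and 254 in Kushen and 327, 307 and 302 in Baituling, again without overlap. CKI exceeded Kushen by 0.17 ± 0.04 (edgeR adjusted p = 0.00302) and the log2 fold change of Kushen against Baituling was -0.27 ± 0.04 (edgeR adjusted p = 7.11e-06), or -0.061 with library totals (edgeR adjusted p = 0.154). The value of -0.11 for CKI against Baituling (edgeR adjusted p = 0.0256) became 0.18 with library totals, and it did not pass without CKI replicate 1, CKI replicate 2 or Baituling replicate 1 (edgeR adjusted p = 0.0654, 0.0801 and 0.133).

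Apart from PSMA6, the largest change of the core was that of PSMB2, a structural beta subunit gene on chromosome 1 (36065142 to 36107127, minus strand, GRCh37). Its levels were 161, 171 and 169 CPM in CKI, 146, 152 and 147 in Kushen and 243, 235 and 222 in Baituling. All 3 treatments were apart, with Baituling far above the others. The log2 fold change was -0.48 ± 0.04 in CKI against Baituling, -0.66 ± 0.04 in Kushen against Baituling and 0.18 ± 0.04 in CKI against Kushen (edgeR adjusted p = 6.21e-09, 8.64e-11 and 0.00374). It kept its direction with library totals, at -0.19 and -0.44 relative to Baituling.

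In the alpha ring, which gates the entry to the barrel, the 2 genes with clear differences went opposite ways. PSMA7, described after its values were seen, had 407, 415 and 437 CPM in CKI, 368, 395 and 403 in Kushen and 565, 512 and 506 in Baituling. Baituling stood above the others, CKI lay above Kushen by a margin that did not pass (0.11 ± 0.05, edgeR adjusted p = 0.0805), and the log2 fold change was -0.33 ± 0.05 for CKI and -0.44 ± 0.05 for Kushen relative to Baituling (edgeR adjusted p = 4.54e-06 and 1.19e-07), of which the first was -0.045 with library totals (edgeR adjusted p = 0.326). PSMA6 had 11.6, 11.7 and 10.5 CPM in CKI, 7.52, 8.45 and 6.7 in Kushen and 7.32, 6.8 and 6.35 in Baituling, so CKI was above both single injections. Its log2 fold change was 0.57 ± 0.10 against Kushen and 0.72 ± 0.11 against Baituling (edgeR adjusted p = 0.000165 and 4.7e-06). PSMA6 rested on 115 to 296 counts per library, has 4 annotated pseudogenes and shares exons with another gene of its strand, and PSMA2, with 3 annotated pseudogenes and 130 to 232 counts, was as low (7.2 to 8.56 CPM as group means). Both levels are therefore uncertain. PSMA4 was at 195 to 210 CPM in all group means.

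The 19S regulator had 20 genes tested. CKI had 5 higher and 2 lower than Kushen, and 6 higher and 10 lower than Baituling, while Kushen had 2 higher and 9 lower than Baituling. Over all genes tested, the shares called higher and lower were 19.6% and 20.2%, 39.1% and 37%, and 35.6% and 36.1% in the same order. With TMM the regulator thus held calls in both directions in every contrast, as all genes together did. With library totals it had no lower call in CKI against Kushen. Of its 6 ATPase genes, 2 were higher and 3 lower in CKI than in Baituling.

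PSMC3, an ATPase gene of the base (chromosome 11, 47440320 to 47448024, minus strand, GRCh37), had the lowest log2 fold change of all 40 genes relative to Baituling. It was at 212, 218 and 223 CPM in CKI, 209, 212 and 214 in Kushen and 369, 342 and 347 in Baituling. CKI and Kushen overlapped and lay far below every Baituling library. The log2 fold change was -0.70 ± 0.04 for CKI and -0.74 ± 0.04 for Kushen relative to Baituling (edgeR adjusted p = 1.05e-11 and 6.63e-12), and 0.04 ± 0.04 between CKI and Kushen (edgeR adjusted p = 0.481). Library totals left -0.41 and -0.52.

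PSMC4, another ATPase gene, showed a different order. Its levels were 222, 225 and 228 CPM in CKI, 157, 174 and 173 in Kushen and 207, 195 and 195 in Baituling. CKI was highest and Kushen lowest, with no overlap between any 2 treatments. It had the largest difference between CKI and Kushen apart from PSMA6, 0.42 ± 0.05 (edgeR adjusted p = 7.87e-07), and a log2 fold change of 0.18 ± 0.05 in CKI against Baituling (edgeR adjusted p = 0.00167) that was 0.11 when Baituling was its replicate 1 alone, with the spread taken from the other groups (edgeR adjusted p = 0.16). With library totals the difference between Kushen and Baituling did not pass (-0.034, edgeR adjusted p = 0.461). PSMC2, an ATPase gene described after its values were seen, had group means of 202 ± 4.24, 170.3 ± 1.24 and 179 ± 3.36 CPM in CKI, Kushen and Baituling. It has 2 annotated pseudogenes, and CKI exceeded Kushen by 0.24 (edgeR adjusted p = 6.58e-05) and Baituling by 0.17 (edgeR adjusted p = 0.000578, or 0.0573 against that single Baituling library with the spread of the other groups).

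Among the non-ATPase genes, PSMD3 and PSMD2 were higher in CKI than in Baituling but parted in Kushen. PSMD3, a scaffold subunit of the lid (chromosome 17, 38137060 to 38154212, plus strand, GRCh37), had 442, 457 and 471 CPM in CKI, 334, 375 and 374 in Kushen and 378, 355 and 356 in Baituling. CKI lay above both single injections, which overlapped. The log2 fold change of CKI was 0.34 ± 0.05 against Kushen and 0.33 ± 0.05 against Baituling (edgeR adjusted p = 1.68e-05 and 3.49e-06).

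PSMD2, the large base subunit that binds ubiquitin-like domains, had 919.9, 914 and 938 CPM in CKI, 920.2, 957 and 924 in Kushen and 754, 745 and 730.2 in Baituling. CKI and Kushen overlapped and lay above every Baituling library, the reverse of PSMC3. The log2 fold change relative to Baituling was 0.31 ± 0.04 in CKI and 0.33 ± 0.04 in Kushen (edgeR adjusted p = 2.62e-07 and 1.64e-07). PSMD11, a lid subunit gene, moved with it, at 0.27 ± 0.04 and 0.23 ± 0.04 (edgeR adjusted p = 1.29e-05 and 8.71e-05). PSMD2 and PSMD11 were the regulator genes called higher in Kushen than in Baituling with TMM. With library totals the log2 fold changes of PSMC2, PSMD3, PSMD4, PSMD10 and PSMD13 in that contrast also turned positive. These are only the regulator genes recomputed one by one. PSMD5, PSMD6, PSMD7 and PSMD12 were not recomputed so, and were at -0.038, -0.18, -0.091 and -0.095 with TMM. Of them PSMD6 and PSMD12 were called lower with TMM. Library totals moved the median of all genes in that contrast from 0.02 to 0.23.

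PSMD14, which encodes the deubiquitinase of the lid, followed the catalytic genes. It was at 119.8, 122 and 120.4 CPM in CKI, 107, 112 and 103 in Kushen and 153, 158 and 150.1 in Baituling. The 3 treatments did not overlap, and the log2 fold change was -0.35 ± 0.04 and -0.52 ± 0.04 for CKI and Kushen relative to Baituling (edgeR adjusted p = 5.31e-07 and 2.69e-09), of which the first was -0.061 with library totals (edgeR adjusted p = 0.202). In CKI against Kushen it was 0.17 ± 0.04 (edgeR adjusted p = 0.00483). PSMD4, a ubiquitin receptor gene, did not pass in any contrast of the main fit, with group means of 246 ± 11.4, 229 ± 4.05 and 229.6 ± 16.7 CPM. Without Baituling replicate 1, CKI exceeded Baituling by 0.16 (edgeR adjusted p = 0.00499). It did so by 0.38 with library totals, 0.17 with upper quartile scaling and 0.14 with at least 10 counts in every library (edgeR adjusted p = 1.24e-07, 0.0034 and 0.0149). With library totals PSMD4 also passed in CKI against Kushen and in Kushen against Baituling, at 0.18 and 0.21 (edgeR adjusted p = 0.00337 and 0.000286). PSMD1, a large base subunit gene, and PSMD10, which encodes the base chaperone gankyrin, were lowest in CKI: PSMD1 had 144 ± 1.55, 159 ± 4.03 and 156 ± 1.31 CPM and PSMD10 had 89.8 ± 2.06, 102 ± 4.88 and 105 ± 1.98. Both passed in the 2 contrasts of CKI with TMM, but relative to Baituling both turned to higher with library totals, at 0.17 and 0.06.

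On the TMM scale, CKI lay between the single injections for 24 of the 40 genes by group mean, above both for 10 and below both for 6. Over all genes tested these shares were 33.8%, 34.8% and 31.5%. Positions were not counted with library totals, which raise CKI relative to both single injections. The median log2 fold change of the 40 genes then went from 0.07 to 0.15 against Kushen and from -0.12 to 0.17 against Baituling. The difference passed against both single injections for 6 of the genes above both, which were PSMA6, PSMC2, PSMC4, PSMD3, PSMD13 and PSME4, and for 3 of those below both, PSMD1, PSMD10 and PSME1. Over all genes 13% passed above both and 13.7% below both. The calls of the latter 3 genes against Kushen were lost with library totals (edgeR adjusted p = 0.149, 0.0613 and 0.103). PSMD13, a lid subunit gene, had 233 ± 2.84, 199 ± 5.93 and 206 ± 12.8 CPM in CKI, Kushen and Baituling, and against Baituling replicate 1 alone, with the spread of the other groups, its difference of 0.18 from Baituling was 0.07 (edgeR adjusted p = 0.343).

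**Figure D2:**
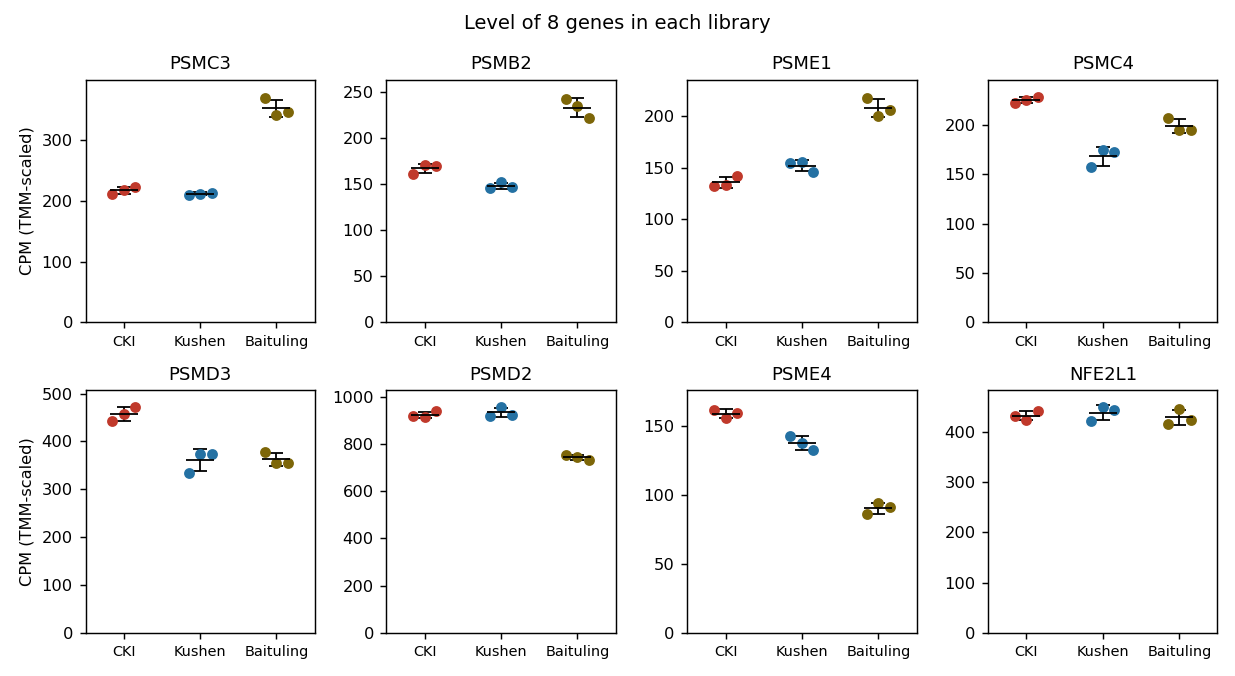
Level (y axis, CPM after TMM scaling) of 8 genes in each library, by treatment (x axis), with the mean and SD of 3 libraries as bars. PSMC3, PSMB2 and PSME1 are highest in all 3 Baituling libraries, PSMD2 and PSME4 are lowest there, PSMC4 and PSMD3 are highest in CKI, and NFE2L1 overlaps between treatments on this scale; with library totals PSMC3, PSMB2, PSME1, PSMD2 and PSME4 keep these directions.

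The activators, which can take the place of the 19S cap at the ends of the barrel, held the gene furthest above Baituling. PSME4 encodes PA200, an activator known for the degradation of acetylated histones (chromosome 2, 54091206 to 54198130, minus strand, GRCh37). It was at 162, 156 and 159 CPM in CKI, 142, 137 and 133 in Kushen and 85.9, 94 and 90.9 in Baituling. No treatment overlapped another, with CKI on top and Baituling at the bottom, and the log2 fold change was 0.82 ± 0.05 for CKI against Baituling, 0.61 ± 0.05 for Kushen against Baituling and 0.21 ± 0.04 for CKI against Kushen (edgeR adjusted p = 3.86e-12, 5.01e-10 and 0.000958). Exons of ACYP2 overlap PSME4 on the other strand.

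The PA28 genes were highest in Baituling with TMM, although library totals put PSME3 above it in CKI. PSME1, of the interferon-inducible PA28 ring, had 132, 133 and 142 CPM in CKI, 154, 156 and 146 in Kushen and 218, 200.5 and 206 in Baituling. The levels rose from CKI to Kushen to Baituling without overlap, with log2 fold changes of -0.16 ± 0.05 for CKI against Kushen, -0.62 ± 0.05 for CKI against Baituling and -0.45 ± 0.05 for Kushen against Baituling (edgeR adjusted p = 0.00796, 2.96e-10 and 3.52e-08). Its partner PSME2, which has 6 annotated pseudogenes, had 121, 126 and 129 CPM in CKI, 127, 114 and 116 in Kushen and 180.4, 165 and 172 in Baituling. CKI and Kushen overlapped, and both lay below Baituling, by -0.46 ± 0.05 and -0.53 ± 0.05 (edgeR adjusted p = 7.03e-08 and 1.06e-08). PSME3, the gene of the nuclear PA28 form, had 197 ± 6.75, 178 ± 7.46 and 229 ± 10.1 CPM. It was lower than in Baituling by -0.22 in CKI and -0.36 in Kushen (edgeR adjusted p = 0.000301 and 8.12e-07), but the first of these was 0.07 with library totals.

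Within a library, a ratio of 2 genes does not depend on the scaling. Per kilobase of transcript, PSME4 stood at 35.4% ± 1.51 of PSME3 in CKI, 33.96% ± 2.06 in Kushen and 17.3% ± 1.15 in Baituling. PSMC3 stood at 44.5% ± 0.866 of PSMD2 in CKI, 42.9% ± 0.951 in Kushen and 89.8% ± 2.9 in Baituling, a pair chosen after its values were seen. In both ratios the Baituling libraries lay apart from the other 6. They did not for PSME1 and PSME2 relative to PSME3, where Baituling libraries started at 281% and 282% and Kushen libraries reached 295% and 296%.

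PSMF1, which encodes the inhibitor PI31, had 114, 117 and 118 CPM in CKI, 110.4, 112 and 107 in Kushen and 156, 151 and 147 in Baituling. Baituling lay above the rest, and the log2 fold change was -0.38 ± 0.04 and -0.46 ± 0.04 (edgeR adjusted p = 9.89e-08 and 7.76e-09). POMP, which guides the maturation of the core, had 179 ± 4.61, 172 ± 5.27 and 198 ± 13.2 CPM, and was lower than in Baituling by -0.14 in CKI and -0.20 in Kushen (edgeR adjusted p = 0.0114 and 0.000843). These became 0.15 and 0.00904 with library totals, and the first did not pass without Baituling replicate 1 (edgeR adjusted p = 0.0949). NFE2L1 itself was at 430.9, 423 and 442 CPM in CKI, 421, 449 and 444 in Kushen and 416, 445 and 423 in Baituling. With TMM all treatments overlapped, and the log2 fold changes were -0.02 ± 0.04, 0.01 ± 0.04 and 0.03 ± 0.04, none of which passed (edgeR adjusted p = 0.739, 0.794 and 0.501). With library totals both treatments exceeded Baituling in NFE2L1, by 0.30 and 0.24 (edgeR adjusted p = 7.05e-07 and 1.27e-05), and Kushen did so by 0.10 with upper quartile scaling (edgeR adjusted p = 0.0284).

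Core and regulator were then compared as particles, by the mean log2 CPM per kilobase of the core genes minus that of the regulator genes in each library. CKI gave 0.26 ± 0.02, Kushen 0.22 ± 0.02 and Baituling 0.26 ± 0.03 (SD, n = 3), and the libraries of Kushen overlapped those of both others. Other summaries gave other orders. The log2 ratio of summed levels was 0.03, 0.05 and 0.20, highest in Baituling, whereas the difference of medians was 0.87, 0.98 and 0.76, lowest in Baituling. The genes counted mattered too. Without the base chaperone genes PSMD5, PSMD9 and PSMD10 the mean difference was -0.08, -0.10 and -0.06, so its sign changed. Without genes that have an annotated pseudogene it was 1.10, 1.08 and 1.30. No single direction of core against regulator held across summaries, and no test was made.

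**Figure D3:**
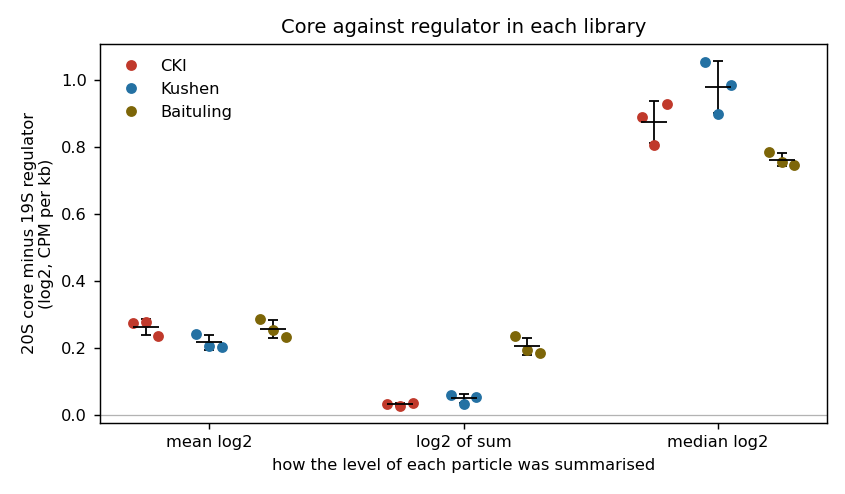
Difference between 20S core and 19S regulator (y axis, log2 of CPM per kilobase) in each of the 9 libraries by treatment, for 3 ways to summarise a particle (x axis), with the mean and SD of 3 libraries. Baituling is level with CKI by mean (0.26 in both), above the others by sum (0.20) and below them by median (0.76).

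A wider list of 46 genes around the proteasome had 43 tested. CKI gave 13 higher and 9 lower of them relative to Kushen, and 15 and 18 relative to Baituling, while Kushen gave 14 and 22 relative to Baituling. The shares of all genes in these directions were 19.6% and 20.2%, 39.1% and 37%, and 35.6% and 36.1%. The immunoproteasome genes stood out in size: 3 of 3 tested were lower in both treatments than in Baituling, all past a log2 fold change of 1 with TMM, while PSMB9 in CKI and PSMB8 in Kushen stood at -0.82 and -0.941 with library totals. PSMB8, PSMB9 and PSMB10 stand in lists the study drew from these samples, so their direction is not independent evidence. PSMB8 had 47.5, 46.6 and 48 CPM in CKI, 52.1, 56.5 and 56.2 in Kushen and 130.1, 117 and 119 in Baituling. Baituling was above the others by more than the whole range within any treatment, with a log2 fold change of -1.37 ± 0.05 in CKI and -1.15 ± 0.05 in Kushen (edgeR adjusted p = 9.43e-15 and 1.7e-13). For PSMB9 the group means were 34.9 ± 1.66, 31.7 ± 0.979 and 75.3 ± 5.92 CPM, and for PSMB10 they were 2.91 ± 0.148, 3.34 ± 0.261 and 13.4 ± 1.65. PSMB8 and PSMB9 share exons on opposite strands, so their reads cannot be fully told apart.

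Each inducible gene was set against the standard gene that it replaces, per kilobase and within each library. PSMB8 was 28.2% ± 1.61 of PSMB5 in CKI, 35.7% ± 2.97 in Kushen and 65.3% ± 0.631 in Baituling. PSMB9 was 15.5% ± 1.04, 15.3% ± 0.396 and 26.1% ± 1.17 of PSMB6, and PSMB10 was 1.01% ± 0.0482, 1.30% ± 0.0819 and 4.33% ± 0.386 of PSMB7 (SD, n = 3). In all 3 pairs the Baituling libraries lay above the other 6, whichever scaling is used, and the standard gene was the more abundant of each pair.

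**Figure D4:**
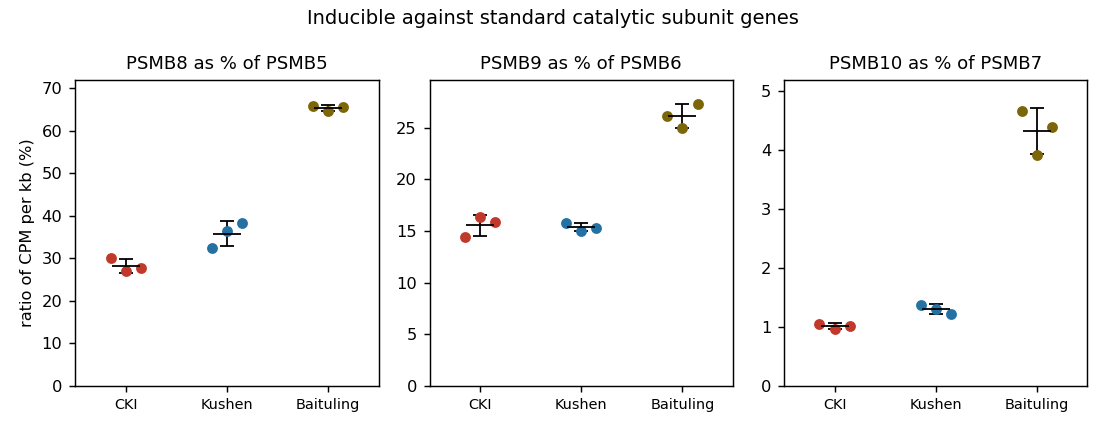
Level per kilobase of each inducible catalytic gene as a percentage of its standard counterpart (y axis) in each library, by treatment (x axis), with the mean and SD of 3 libraries. Baituling lies above CKI and Kushen in all 3 panels, with PSMB8 at 65.3% of PSMB5 there.

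Of the core assembly chaperones, 4 of 4 genes were lower in both treatments than in Baituling, where 37% and 36.1% of all genes were lower, and in CKI against Kushen 2 were lower and 2 did not pass. PSMG1 among them also stands in gene lists of the study, so its direction is not independent evidence. PSMG4 had 25.02 ± 1.68, 30.9 ± 0.702 and 50.3 ± 3.44 CPM in CKI, Kushen and Baituling, and a log2 fold change of -1.01 ± 0.06 for CKI against Baituling (edgeR adjusted p = 2.46e-11). Genes listed for the processing or turnover of NFE2L1 went the other way, namely NGLY1, SYVN1, SEL1L, FBXW7 and BTRC. Of these, 5 of 5 were higher in both treatments than in Baituling, where 39.1% and 35.6% of all genes were higher. FBXW7 only just passed in Kushen against Baituling (edgeR adjusted p = 0.0498), and its libraries overlapped there. The 5 genes do not share 1 function, and the processing of NFE2L1 was not tested. SEL1L, which serves the retrotranslocation of membrane proteins, had 165 ± 1.66, 189 ± 12 and 116 ± 3.78 CPM. DDI2, the protease that cleaves NFE2L1, had 36.8 ± 0.537, 30.7 ± 1.24 and 22 ± 2.66 CPM, with log2 fold changes of 0.75 ± 0.07 and 0.48 ± 0.07 relative to Baituling (edgeR adjusted p = 1.44e-08 and 8.2e-06). It was listed apart from those 5, with the shuttle receptors. Of 6 tested there, 2 were higher and 1 lower in CKI than in Baituling, and 2 higher and 2 lower in Kushen. Of 5 genes listed under p97, 3 were higher in each treatment, but VCP was lower in both with TMM (-0.17 and -0.18).

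The small MAF genes, whose products pair with NFE2L1 on DNA, gave the largest rises of the wider list. MAFG had 146 ± 3.73, 126 ± 4.47 and 69.2 ± 5.23 CPM in CKI, Kushen and Baituling and MAFK had 50.9 ± 1.98, 34.7 ± 3.4 and 23.9 ± 2.36. They were higher in CKI than in Baituling by 1.08 ± 0.05 and 1.09 ± 0.08 (edgeR adjusted p = 4.27e-13 and 9.43e-11). MAFF differed from them, at 126 ± 8.0, 78.3 ± 8.56 and 133 ± 1.48 CPM, lowest in Kushen.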

How the data were processed

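The authors trimmed the reads with Trim Galore 0.3.7, aligned them with STAR 2.5.3a to hg19 and deposited 1 table of raw counts per gene, per the labels; the counting program, its annotation and its handling of shared reads are not given in the sources used here. The table had 24566 lines, of which 222 repeated a gene with identical counts and were dropped. Symbols came from GENCODE on GRCh37, and columns were assigned by treatment initial and replicate number. Genes were kept by filterByExpr of edgeR 4.0.16 (R 4.3.3, minimum count 10, minimum total 15), scaled by TMM and tested in a single quasi-likelihood fit of 9 libraries with group as the only term, two-sided and Benjamini-Hochberg adjusted over 14195 genes. Levels per kilobase used the Ensembl canonical transcript, a choice made after the lengths were seen. The test was checked on simulated data.

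The members and lists were chosen with earlier results of these data known. Genes named were the catalytic subunits, PSMD14, PSMD4, the activators, PSMF1, POMP, NFE2L1 and the immunoproteasome genes, plus the 3 largest called rises and falls of each list per contrast. PSMA2, PSMA7, PSMC2 and PSMD13 were added after their values were seen. Alternatives were other scalings, filters, DESeq2 1.42.0, a replicate block and leaving out libraries. An exact permutation test of 3 against 3 libraries cannot go below p = 0.1. Depth limits low genes such as PSMB10. A gene of the wider list that the rule names is not reported here.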

Additional observations from a re-analysis of the deposited data

How the results depend on the processing

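Counts of called genes stayed within 1.5 times of 14, 30 and 24 under every alternative run, except that library totals gave 26 in CKI against Kushen. The median log2 fold change of the 40 genes became 0.15, 0.17 and 0.10 in the 3 contrasts with library totals. In the contrasts with Baituling it was -0.047 and -0.038 with upper quartile scaling and -0.19 in both without Baituling replicates 2 and 3, an alternative chosen after seeing the data that leaves 1 Baituling library with the spread of the other groups, and for CKI it was -0.075 with at least 10 counts in every library. Leaving out a replicate at a time gave 13 to 17, 26 to 31 and 22 to 26 called genes and medians of 0.052 to 0.09, -0.13 to -0.084 and -0.15 to -0.083. The replicate block gave 13, 31 and 23 called genes. Same-numbered libraries correlated by -0.075 to 0.12, so the numbers were not taken as pairs.

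The core minus regulator difference between treatments was 0.045, 0.00533 and -0.039, and leaving out a replicate gave 0.037 to 0.058, -0.00655 to 0.019 and -0.052 to -0.025. It became -0.017, -0.17 and -0.15 by summed levels and -0.10, 0.11 and 0.22 by medians. It was 0.011 and -0.0213 in the contrasts of CKI without PSMD5, PSMD9 and PSMD10. It was 0.016, -0.20 and -0.21 without genes that have an annotated pseudogene, also chosen after seeing the data, and -0.023 and -0.0675 in the Baituling contrasts without Baituling replicates 2 and 3. Leaving out pseudogenes of the table gave no value, as it held none.

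Single genes were recomputed for the 111 results of named genes, each 1 gene in 1 contrast, so members not named are outside these counts. Of the recomputed values, 1623 kept direction and call, 38 lost a call, 39 gained one and 39 changed sign, 17 of the last with library totals. Those were NFE2L1 0.056 and PSMD2 0.0602 in CKI against Kushen. For CKI against Baituling they were PSMB5 0.13, PSMB7 0.18, PSME3 0.071, POMP 0.15, PSMD1 0.17, PSMD10 0.064, MAFF 0.21, ADRM1 0.085 and NFE2L3 0.12. For Kushen against Baituling they were PSMD4 0.21, POMP 0.00904, PSMC2 0.14, PSMD13 0.16, PSMD3 0.20 and PSMD10 0.17, and upper quartile scaling gave PSMD4 0.067, PSMD13 0.022, PSMD3 0.062 and PSMD10 0.028. PSMD4 and PSMD3 in that contrast were 0.0302 and 0.026 with at least 10 counts in every library, 0.016 and 0.012 with only the groups compared and 0.0089 and 0.0048 with the table as deposited. NFE2L1 in CKI against Baituling was -0.0056 with RLE size factors and -0.0055 with DESeq2, and PSMD4 there was -0.032 without Baituling replicates 2 and 3. Leaving out a replicate gave -0.034 to 0.0013 for PSMD2 and -0.0053 to 0.065 for PSMD11 in CKI against Kushen, -0.0085 to 0.036 for NFE2L1 in CKI against Baituling, and -0.0402 to 0.068 for PSMD4, -0.084 to 0.013 for PSMD13 and -0.035 to 0.045 for PSMD3 in Kushen against Baituling. None of these last genes had passed the test. In CKI against Kushen, PSME2 passed without Kushen replicate 1 (edgeR adjusted p = 0.0439), and PSME3 did not pass without CKI replicate 3 or Kushen replicate 3 (edgeR adjusted p = 0.0849 and 0.0683). The cause of these changes was not tested. Depth limits the least abundant genes, PSMB10, PSMA2 and PSMA6.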
